A study of Schizosaccharomyces pombe with 6 samples.

Results

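Of the 299 regions that the authors called for Pli1-12Pk, 213 were 10000 bp or longer, and these long regions are described here. They were chosen by length alone, as end minus start in the authors' list, and the other 86 regions were shorter. The 3 lists of the series hold 3896 regions in all, with 3535 for the strain without a tag and 62 for Nse2-12Pk. Together the long Pli1 regions held 12194463 of 12571820 bp, or 97% of the genome. A long region is therefore not a binding site, and a gene lying inside one is not set apart from other genes by that. What differs from region to region, and is described below, is the summit (the base of highest signal), the gene there, the peaks of the untagged strain inside, and the Nse2 region around it.

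The study mapped both proteins on chromatin in fission yeast, Schizosaccharomyces pombe, by chromatin immunoprecipitation and sequencing (ChIP-seq). The 3 strains carried no tag, Pli1 with a 12Pk epitope tag, or Nse2 with a 12Pk tag, and the sources used here name no further alleles. All were grown to exponential phase in rich medium (YES) with no drug named in the labels, mixed with budding yeast carrying Ku70-cMyc as a calibrator, and precipitated with an anti-Pk antibody. Each strain gave 1 ChIP library and 1 input, so there is no replicate error and no difference between strains was tested. Intervals are exact Clopper-Pearson 95% intervals and cover counting error only. The sources used here give no read depths.

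SUMO is a small protein that is joined to lysines of other proteins and, like ubiquitin, can form chains. Ligases help to choose the substrates. Pli1 is the PIAS-family ligase of fission yeast and carries out most of its SUMO attachment, while Nse2 belongs to the Smc5/6 complex, a relative of cohesin that works in DNA repair and at stalled replication forks. Loci that hinder forks, among them tRNA genes, ribosomal RNA genes, centromeres and strongly transcribed genes, are often called fragile.

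The summits are the finest positions in the data, so the sequences under 8 of them are shown first, as RefSeq gives them for the ASM294v3 assembly. The first 4 are tRNA genes with a summit inside the gene, on the gene's own strand, with the B box (searched as GTTCNANNC, the internal promoter element bound by the RNA polymerase III factor TFIIIC) in capitals. They are SPCTRNAHIS.03 (III:71400-71471, plus strand), SPBTRNAPRO.07 (II:2939715-2939786, plus), SPBTRNAPHE.03 (II:2576376-2576448, minus) and SPATRNAVAL.02 (I:703075-703147, minus). Counted from the 5' end of the gene, the summit is at base 3, 42, 19 and 20 in that order, always upstream of the B box.
SPCTRNAHIS.03: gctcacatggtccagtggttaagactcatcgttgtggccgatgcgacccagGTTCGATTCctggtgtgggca
SPBTRNAPRO.07: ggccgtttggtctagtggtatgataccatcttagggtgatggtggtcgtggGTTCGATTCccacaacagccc
SPBTRNAPHE.03: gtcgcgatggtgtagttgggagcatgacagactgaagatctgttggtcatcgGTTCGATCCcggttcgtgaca
SPATRNAVAL.02: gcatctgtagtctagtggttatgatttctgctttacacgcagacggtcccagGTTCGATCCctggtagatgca

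The fifth sequence is the plus strand around the summit beside SPBTRNAILE.06 in centromere 2 (II:1618332-1618452), with bases that belong to tRNA genes in capitals. The summit, base 61, falls in the AT-rich spacer between a tRNA-Ile and a tRNA-Ala gene. The window at SPBTRNAILE.08 (II:1645463-1645583) is identical over all 121 bases, and that at SPBTRNAILE.05 (II:1600127-1600247) over 119 bases after a shift of 2. These 3 summits therefore lie in copies of one sequence.
SPBTRNAILE.06: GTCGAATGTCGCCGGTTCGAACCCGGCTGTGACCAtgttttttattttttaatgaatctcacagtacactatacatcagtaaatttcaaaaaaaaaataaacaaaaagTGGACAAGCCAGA

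The last 3 are plus-strand windows around other summits, with the 11 bases at the summit in capitals. They show the long region with the highest score (at SPNCRNA.954, I:3991630-3991658), the one with the second highest (snoU14, II:1308594-1308714), and the protein-coding gene adh1 (III:1592134-1592254), where Pli1, Nse2 and untagged summits lay close together.
SPNCRNA.954: cagtctggaACGAGAAGCGCatgaagcta
snoU14: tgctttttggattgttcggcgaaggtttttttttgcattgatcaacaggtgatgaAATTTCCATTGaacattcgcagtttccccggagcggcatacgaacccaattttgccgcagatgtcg
adh1: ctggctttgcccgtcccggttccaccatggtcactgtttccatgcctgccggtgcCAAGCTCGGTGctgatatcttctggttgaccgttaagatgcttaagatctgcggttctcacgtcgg

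The long regions were unequal in size. Their lengths ran from 10298 to 351192 bp, with a median of 41751 bp and quartiles of 25368 and 69260 bp. There were 38 under 20 kb, 90 from 20 kb to under 50 kb, 58 from 50 kb to under 100 kb, and 27 of 100 kb or more, which alone held 4377947 bp. Chromosomes I, II and III carried 101, 75 and 37 of them, and 97.1%, 97.8% and 95.3% of the bases of these chromosomes lay inside. The regions stood close together. The gap before one had a median of 218 bp and the gap after it 213 bp, and 178 of the 426 region ends bordered a gap under 200 bp. A boundary between neighbours can thus rest on a short dip in signal.

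The longest long region (351192 bp, III:1859096-2210287) had its summit in ssa2, which codes for an Hsp70 chaperone. Next came snoU14, the U14 small nucleolar RNA used in ribosomal RNA processing (272622 bp, II:1268149-1540770), and rps3, a protein of the small ribosomal subunit (220593 bp, II). The other regions among the 15 longest had their summits at SPNCRNA.1550, SPATRNASER.02, SPAC1805.10, eft202 (elongation factor 2), SPAC56F8.13, rpl1002 (large ribosomal subunit), mug114, SPNCRNA.7229, SPNCRNA.1375, SPNCRNA.6762, mug8 and tif223 (a subunit of eIF2B), with lengths from 217296 down to 138181 bp. At the other end, the shortest long regions were at the urease gene ure2 (10298 bp, score 1298), SPCC777.02 (10444 bp, 1375), the retrotransposon Tf2-1 (10465 bp, 1966), SPCTRNAASN.06 (10482 bp, 4434) and any1 (10901 bp, 1920). Just under the threshold stood tup11 (8844 bp, score 1732), hom2 (8780 bp, 1730), rhp6 (8547 bp, 1000), SPNCRNA.7212 (8243 bp, 3524) and puf3 (7894 bp, 1173). By this choice no Pli1 region had a length between those of tup11 and ure2. Whether the lengths have a natural break there was not tested.

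The score is the authors' own number for each region, on a scale they do not state, so it ranks regions within the Pli1 list only. Long regions scored from 1068 to 27867, with a median of 2753 and quartiles of 2068 and 3854. The shorter regions had a median of 1458.5 but reached 28692. Of the 50 highest scores of the list, 31 belonged to long regions. This is a smaller share than the 213 of 299 that long regions make up. Among the long regions, length and score had a Spearman correlation of 0.385 (n = 213). This is a description, since both values come from the same calls and a longer region has more bases in which to find a maximum. The lowest score was at bdp1 (1068), which codes for a subunit of the RNA polymerase III factor TFIIIB.

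**Figure D1:**
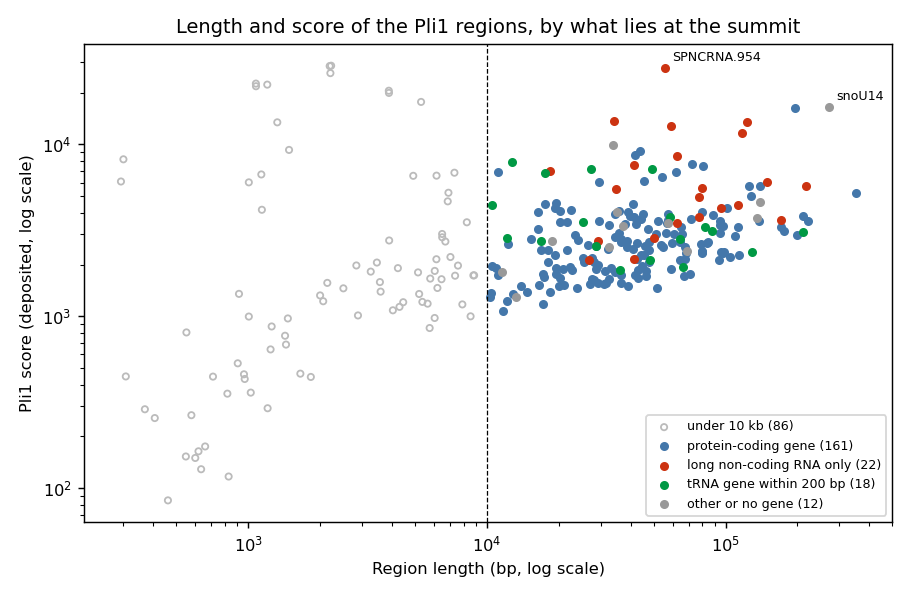
Length in bp against the authors' score (both on log scales) for all 299 Pli1 regions, with the 86 shorter ones as open circles left of the dashed line at 10000 bp and the 213 long ones coloured by the kind of gene at the summit. The highest score of a long region, 27867 at SPNCRNA.954, belongs to one of 55528 bp, and the long regions at protein-coding genes have a median score of 2569.

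The 20 highest scores came from several kinds of gene. SPNCRNA.954 on chromosome I (score 27867, position 3991644) ranked 3 in the whole list. Its summit was 186 bp from SPAPB15E9.02C and 232 bp from pfl2, a cell surface flocculin gene, and the annotation calls this RNA a possible alternative UTR. The second was snoU14 (16516, II:1308654), 295 bp from mamRNA, the long RNA that binds the meiotic regulators Mmi1 and Mei2. The next was SPAC56F8.13 (16223, I:1150258), a gene of unknown role, followed by SPNCRNA.1390 (13637) on chromosome II.

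Several other high scores were at regulatory or repeated loci. The summit at SPNCRNA.6615 (13463, II:4443285) also lay in prt2, a long RNA that represses the phosphate transporter gene pho84 in cis. The summit in nam1 (8527, II:1742751) lay in an RNA that represses byr2, a kinase gene of the mating pathway. The centromeric RNA SPNCRNA.7194 (11678, III:1079605) and the mating-type RNA SPNCRNA.391 (9983, II:2136820, 222 bp away) lay in sequence present more than once in the genome. So did ubi4 (9116, II:1044989), which codes for a chain of ubiquitin repeats. The rest of the 20 highest were SPNCRNA.1197 (12862), rgp1 (8627), SPBTRNAILE.06 (7950), the thiazole synthesis gene thi2 (7690), SPNCRNA.6984 (7606), the alcohol dehydrogenase gene adh1 (7440), SPBTRNAILE.08 (7179), SPBTRNAILE.05 (7149), prl53 (7048), the F-box gene pof9 (6956) and SPCC1672.01 (6940), whose summit was 223 bp from the fork barrier factor gene sap1. By kind these 20 comprised 7 protein-coding genes, 8 long non-coding RNA genes and 3 tRNA genes, besides snoU14 and SPNCRNA.391, and 12 of them were on chromosome II. An untagged peak held 10 of the 20 summits.

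By kind of gene, most summits of long regions were in protein-coding genes, at about the share of the genome that such genes take up. The count was 161 of 213 (75.6%, interval 69.2 to 81.2%), against 66.9% of all 299 Pli1 regions and 76.7% of the bases of the genome. Coding exons held 152 summits (71.4%), against 56.9% of the bases of the genome, and introns held 0. In 22 cases the summit lay in a long non-coding RNA gene with no other gene there (10.3%, interval 6.59 to 15.2%), against 16.7% of all Pli1 regions and 32.6% of the shorter ones. These 22 had a median score of 5557 (2119 to 27867), against 2569 (1068 to 16223) at protein-coding genes. No test was made of this difference, as the summit and the score come from the same track of 1 library.

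Within protein-coding genes the summits stood toward the 3' end. Split into steps of 20% of the gene from its 5' end, the 161 summits numbered 5, 15, 39, 62 and 40. Their median place was 66.3% of the way along the gene. The summits of untagged peaks in protein-coding genes had a median of 51.9% (n = 3439), with 272, 846, 1000, 958 and 363 in the same steps. The 124 summits of long Pli1 regions that lay in untagged peaks had a median of 65.9%, and the 37 outside them 70.9%, of which 16 (43.2%) were in the last 20% of the gene against 10.6% of the untagged summits. Nse2 regions of 10000 bp or more had a median of 56.3% (n = 35). No test was made between these lists.

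**Figure D2:**
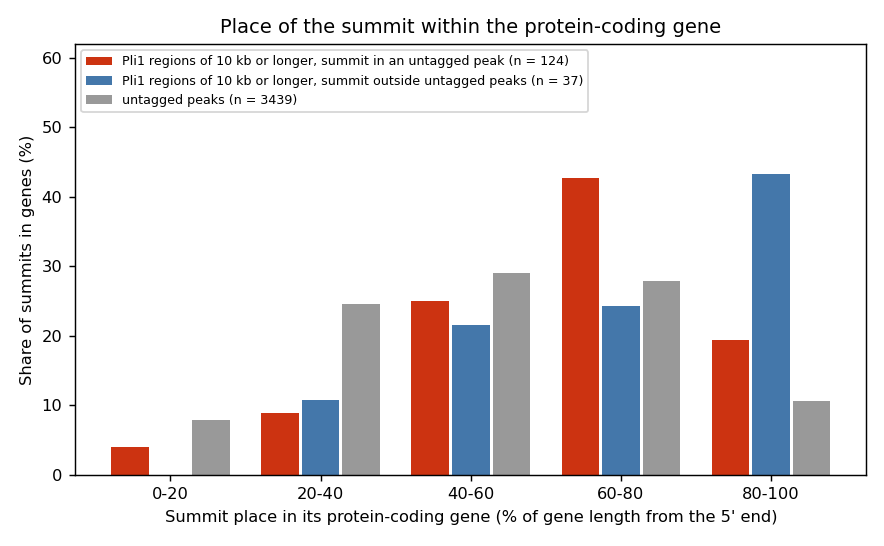
Share of summits (%) in each 20% of the protein-coding gene from its 5' end, for long Pli1 regions with the summit in an untagged peak (124), long Pli1 regions with it outside (37) and untagged peaks (3439). In the last 20% of the gene the bars stand at 43.2% for the long regions outside untagged peaks and 10.6% for untagged peaks.

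Base composition at the summit was higher in G and C than in the region. Over 500 bp at the summit the GC content had a median of 41% (25.6 to 53.8%), against a median of 36.2% over whole regions. It was above the region's own value in 174 of 213 (81.7%), against 79.3% of all Pli1 regions and 73.3% of the shorter ones. Untagged summits had a median of 41.4%, close to that of the long Pli1 regions. Summits of long regions inside untagged peaks had 42% and those outside 38%. Summits at tRNA genes had 33.3%. The word TATAAA, searched on both strands in the 301 bp around the summit, was present in 42 of 213 (19.7%), against 34.9% of 41766 windows tiled along the genome. GC content at the summit and score had a Spearman correlation of 0.0189 (n = 213, all from 1 library).

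Genes read by RNA polymerase III had summits inside or beside them. A tRNA gene lay within 200 bp of the summit in 18 of 213 long regions (8.45%, interval 5.09 to 13.0%). That window around tRNA genes takes up 0.598% of the genome, and 6.35% of all Pli1 regions had such a summit. In 7 the summit was inside the gene, and the farthest was 28 bp away, with a median of 10 bp. Of the 18, 3 lay in untagged peaks (SPCTRNAARG.13, SPCTRNAASN.06 and SPBTRNAASN.02), against 136 of all 213, and 0 were within 500 bp of an Nse2 summit. In the untagged list, 7 of 3535 summits (0.198%) were at tRNA genes. Among the shorter Pli1 regions 1 of 86 (1.16%) had a summit at a tRNA gene. In all, 77 long regions held at least 1 tRNA gene, and 18 of these (23.4%) had such a summit. Of 171 tRNA genes, 169 were inside long regions.

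Scores at the 18 tRNA summits ran from 1859 to 7950, with a median of 3117.5. The highest were at the centromeric genes shown above, SPBTRNAILE.06 (7950), SPBTRNAILE.08 (7179) and SPBTRNAILE.05 (7149), and at SPCTRNAARG.13 (6816) in centromere 3. At these 4, all 300 of the 50-base words counted around the summit occur elsewhere in the genome too. The tRNA-Ala genes SPBTRNAALA.09, SPBTRNAALA.11 and SPBTRNAALA.08 lay 48, 48 and 46 bp from the same 3 summits, so these cannot be given to the tRNA-Ile genes alone. On the chromosome arms followed SPCTRNAASN.06 (4434), SPBTRNAHIS.02 (3763), SPCTRNAHIS.03 (3527), SPBTRNAARG.05 (3304), SPBTRNAPRO.07 (3125) and SPATRNASER.02 (3110). The other 8 were SPBTRNAASN.02, SPBTRNAPRO.06, SPATRNASER.04, SPBTRNAPHE.03, SPBTRNASER.06, SPATRNAASP.02, SPATRNAGLY.01 and SPATRNAVAL.02, with scores from 2855 down to 1859. Only SPBTRNAARG.05 had no repeated 50-base word around its summit. The 2 tRNA-Pro genes with a summit inside, SPBTRNAPRO.06 and SPBTRNAPRO.07, have the same sequence.

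The B box letters GTTCNANNC, on either strand, occurred in the 301 bp around all 18 tRNA summits, at a median of 40.5 bp from the summit (14 to 98 bp). They occurred in 24 of the other 195 long regions (12.3%) and in 9.75% of genome windows. Since tRNA genes carry a B box, these matches only describe where the summit falls in them.

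Among other small RNA genes, 5S ribosomal RNA genes, also made by RNA polymerase III, had 5 summits within 200 bp. This is 2.35% of long regions, against 1.67% of all Pli1 regions and 0.162% of the genome. They were SPRRNA.28 (score 2520), SPRRNA.15 (1804), SPRRNA.34 (1293), and SPRRNA.06 and SPRRNA.39, which lay 149 and 161 bp from the summits already given for SPCTRNAASN.06 and SPBTRNAASN.02. Genes of small nuclear and nucleolar RNAs had 4 (1.88% of long regions, against 1.34% of all Pli1 regions and 0.293% of the genome): snoU14, snoR69b (4030), snoZ3 (3798) and the spliceosomal U2 RNA gene snu2 (2738). Of these only snoU14 lay in an untagged peak. The large ribosomal RNA genes had 0, since none of the 11 lies in a long region. They took 3.68% of the summits of all Pli1 regions and 0.18% of the genome, all through shorter regions at the ends of chromosome III.

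Ribosomal protein genes, whose products build the ribosome, gave the largest count of the gene lists, with a summit within 200 bp in 30 of 213 long regions (14.1%, interval 9.71 to 19.5%). The share was 11% for all Pli1 regions, 1.24% for bases of the genome and 2.60% for untagged summits (92 of 3535). Of the 30, 23 (76.7%) lay in untagged peaks, against 77.0% (124 of 161) of summits in any protein-coding gene. Their scores were even, from 1953 to 4054 with a median of 2704.5. The highest were rpl8 (4054), rps2602 (3836, with the summit in SPAC1805.10, 174 bp away), rps3 (3595), rps1401 (3546), rps29 (3494, 113 bp away), rps1001 (3461), rpl1001 (3410), rps2202 (3220), rpl1002 (3122) and rps002 (3068). Of these rps29 and rps2202 lay outside untagged peaks. The 26 summits inside a ribosomal protein gene stood at a median of 65.3% of its length, against 66.3% for all protein-coding genes. The HomolD box CAGTCACA, an element of ribosomal protein promoters, was in 88 of 138 of these promoters (63.8%, from 250 bases before to 50 after the start), in 2.68% of all promoters and in 0.555% of genome windows. It was in 0 of the 213 summit windows.

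The lists of central metabolism, translation and stress were fixed by symbol with earlier results of these data known. A share above that of the genome is therefore a description only. The share to read their counts in untagged peaks against is the 77.0% of summits in any protein-coding gene. Glycolysis and fermentation had 5 summits (2.35% of long regions, against 1.67% of all Pli1 regions and 0.309% of the genome): adh1 (7440), the enolase gene eno101 (6423), the pyruvate decarboxylase gene pdc101 (4295), the pyruvate kinase gene pyk1 (4066) and the triosephosphate isomerase gene tpi1 (3773). All 5 were in untagged peaks. Translation factors had 7 (3.29% of long regions, against 2.34% of all Pli1 regions and 0.194% of the genome): tef103 (6055, 198 bp from a summit in SPNCRNA.1375), tef3 (4549), tef102 (3934), tif1 (3419), tif51 (3373), tef5 (3041) and eft202 (2964). Of these tif51, at 119 bp, was outside untagged peaks. The eIF2B subunit gene tif223, named above among the longest regions, is not among the 12 genes of this list. The gene tef102 lay in sequence shared with other copies of elongation factor 1 alpha, with all 300 words repeated. Heat shock genes had 3 (1.41% of long regions, against 1.34% of all Pli1 regions, where they had 4, and 0.33% of the genome), at ssa2 (5228), hsp90 (4246) and sks2 (4071), each in an untagged peak.

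Smaller lists, also chosen with earlier results of these data known, had few summits. The list of 20 membrane transport genes, fixed by symbol, had 3 (1.41% of long regions, against 0.453% of the genome). The share was 1.34% for all Pli1 regions, where the list had 4. The genes were zrt1 (3695), which takes up zinc, ght2 (3448), which takes up hexoses, and ptr2 (2155). The last lay 195 bp from the summit and outside an untagged peak. The list is not complete: fex1, a fluoride export channel gene with a summit inside it (2165), is not on it. Methionine, thiamine and one-carbon genes had 3 (1.41% of long regions, against 1% of all Pli1 regions and 0.222% of the genome), at thi2, thi9 (4481) and nmt1 (3037), of which only nmt1 was outside. Histone genes had 2 (0.939% of long regions, against 0.669% and 0.112%), at htb1 (4475, 124 bp from a summit in sec5) and hhf1 (2205). Tf2 retrotransposons had 1 (0.469% of long regions, against 0.334% and 0.457%), at Tf2-1, although all 13 lie in long regions. All 300 words around the Tf2-1 summit are repeated. Long terminal repeats had 0, as in all Pli1 regions (0%), and their window is 1.3% of the genome, with 230 of 238 inside long regions. The tracks held uniquely mapped reads, so a low count at repeated sequence is not a measure of low signal there. The SUMO pathway (0.256% of the genome) and the Smc5/6 complex (0.157%) had 0 each, with 13 of 13 and 8 of 8 genes inside.

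**Figure D3:**
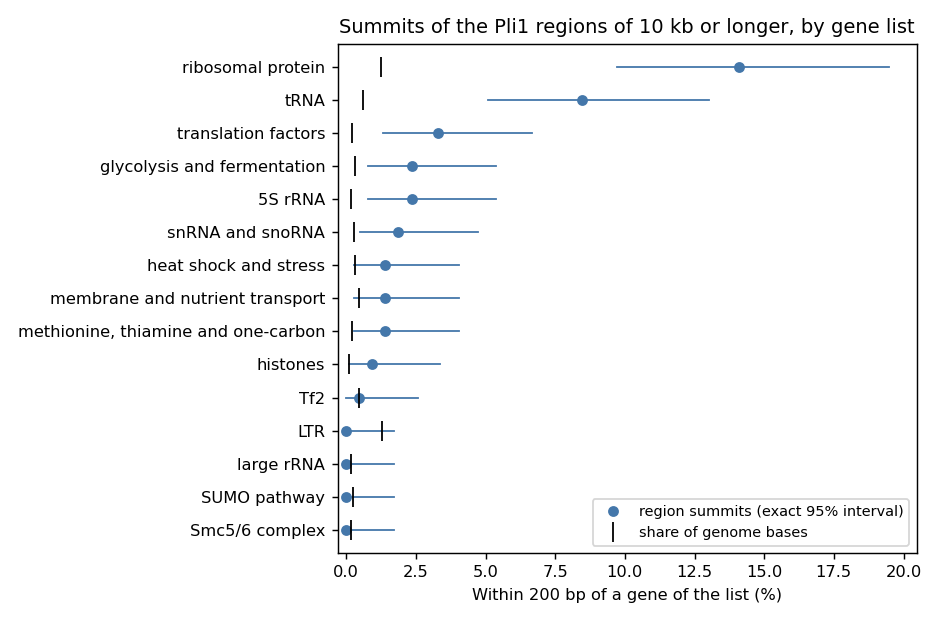
Share of the 213 long Pli1 regions with a summit within 200 bp of a gene of each list (points, with exact 95% intervals), beside the share of genome bases in the same window. Ribosomal protein genes (14.1%) and tRNA genes (8.45%) are highest. The lists were chosen with earlier results of these data known, so the distance from the genome share is a description only.

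The genes of the ligases and of SUMO itself were inside long regions, away from their summits. The gene pli1 (I:908696-911854), the target of the tag, was in the 45863 bp region with its summit in rps102, 9948 bp away, and held 1 untagged peak (untagged score 90). The gene nse2 was in the 212061 bp region of SPATRNASER.02, 41729 bp from the summit, with 0 untagged peaks on it. The SUMO gene pmt3 was in the 44493 bp region of rpl2101, 3459 bp from the summit, with 1 untagged peak (untagged score 148).

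Summits also had a place within their own region. In steps of 20% of the length from the left end of the region, they numbered 49, 36, 29, 39 and 60. The nearer end was at a median of 5990 bp (291 to 151142 bp), and 14 summits (6.57%) were within 1000 bp of an end. SPCC1672.01 (11118 bp, III:553163-564280), with its summit at 563989, is an example near an end. So is rgp1 (II:3818160-3859910), with its summit at 3859313.

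Untagged peaks were spread through the long regions about as through the genome, of which these regions are 97%. Of the 3535 peaks, 3461 (97.9%) lay in a long region, each wholly inside. They covered 18.8% of the bases of long regions, against 18.7% of the genome. A long region held a median of 12 (0 to 101), or 2.84 per 10000 bp. The number inside followed length closely (Spearman 0.939, n = 213), while the number per 10000 bp did not (-0.0405). The extremes of number were ssa2 with 101, snoU14 with 83 and SPAC56F8.13 with 71.

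Only SPBTRNAILE.06 (12733 bp) and bdp1 (11633 bp) held none (0.939% of long regions, against 15.7% of all Pli1 regions). Of the shorter regions, with a median length of 2218 bp, 52.3% held none. A shorter region has less room for a peak, so this contrast goes with the choice by length. For bdp1 the lack of untagged peaks went with the lowest score of all long regions, and for SPBTRNAILE.06 with one of the 20 highest. After them the sparsest were SPCC757.02C (0.545 per 10000 bp), the ornithine transaminase gene car2 (0.813) and the alanyl-tRNA synthetase gene ala1 (0.819). The densest were SPCC1672.01 (6.30), SPAC513.07 (5.39), the glucose-6-phosphate dehydrogenase gene zwf1 (5.27), the glutamate synthase gene glt1 (4.88) and SPCTRNAASN.06 (4.77). In glt1 untagged peaks covered 47.9% of the region, the highest share.

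**Figure D4:**
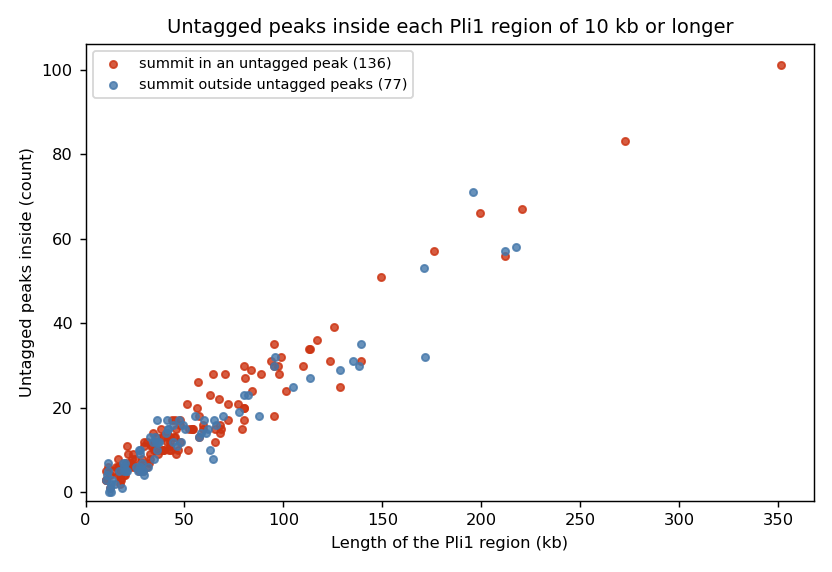
Length of each long Pli1 region in kb against the number of untagged peaks inside, coloured by whether the Pli1 summit lies in an untagged peak (136) or outside (77). The number rises with length to 101 at ssa2, and 2 regions hold 0.

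The summit of a long Pli1 region lay in an untagged peak in 136 of 213 cases (63.8%, interval 57.0 to 70.3%), against 56.2% of all Pli1 regions and a coverage of 18.7% of the genome. In 53 (24.9%, interval 19.2 to 31.2%, against 26.4% of all Pli1 regions) that peak was the one with the highest untagged score in the region. It ranked 2 in 32, 3 in 17 and lower in 34. In these 136 regions the Pli1 summit was at a median of 28.5 bp from the summit of the untagged peak, and within 100 bp in 115 (84.6%). Examples where Pli1 and the highest untagged peak met are ssa2 (untagged score 2584, the highest in any long region), SPNCRNA.7194 (1306), rps1001 (1268), dbp2 (1117), eno101 (1025), sfp1 (1024), psu1 (948) and adh1 (935). Across the 211 regions with a peak, the Pli1 score and the highest untagged score had a Spearman correlation of 0.594. Length had 0.385 with the Pli1 score and 0.470 with the untagged maximum. In the shortest 71 long regions, of which 69 held a peak, the correlation of the scores was 0.703. It was 0.556 in the middle 71 and 0.274 in the longest 71. Within these groups length had 0.166, 0.171 and 0.346 with the Pli1 score, in the same order. With the untagged maximum it had 0.184, 0.133 and 0.405. The part of length in the correlation of the scores was not tested. How much of the Pli1 signal at these summits does not depend on the tag was not tested.

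The other 77 summits lay outside untagged peaks, at a median of 1038 bp from the nearest (286 to 11726 bp). Protein-coding genes took 37 of the 77 (48.1%) but 124 of the 136 inside (91.2%). Genes of long non-coding RNA alone took 15 of the 77 and 7 of the 136. For tRNA genes the counts were 15 and 3, and for ribosomal protein genes 7 and 23. The highest scores outside were SPNCRNA.954 (nearest untagged peak at 1216 bp), SPAC56F8.13 (2556 bp), SPNCRNA.1390 (1504 bp), rgp1 (1062 bp), SPBTRNAILE.06 (5903 bp) and SPNCRNA.6984 (1675 bp). In the untagged list 97.3% of summits were in protein-coding genes and 1.87% in long non-coding RNA genes alone. Inside and outside were not compared by a test.

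All 213 long Pli1 regions touched an Nse2 region. Of them 199 (93.4%) lay wholly inside 1, much as did 92.3% of all Pli1 regions and 89.5% of the shorter ones. The Nse2 region around a long Pli1 region had a median length of 735243 bp, so that many long Pli1 regions shared 1 Nse2 region. There were 39 such Nse2 regions, 13 with 1 long Pli1 region and 26 with more, which together held 200. The largest groups were 31 in the Nse2 region with its summit in atd1 (1392515 bp, chromosome I), 27 in that of eno101 (1548631 bp, II) and 22 in that of rps1001 (1345222 bp, I). Only 7 long Pli1 regions touched more than 1 Nse2 region (3.29%, against 2.68% of all Pli1 regions). The number touched was 4 at snoU14 and 2 each at taf9, SPAC56F8.13, rpl2001, tif223, SPBTRNAILE.08 and dbp2.

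In 25 of the 26 shared Nse2 regions the Nse2 summit lay in a long Pli1 region, and in 15 it was in the one with the highest Pli1 score of the group. In 6 it was in the one that ranked 2. In the case outside the 25 it was in a shorter Pli1 region. Long Pli1 regions hold 97% of the genome, so 25 of 26 is near the share for any base. No expected number was worked out for the 15. Over all long regions, 37 of 213 held the summit of their Nse2 region (17.4%, interval 12.5 to 23.1%), against 19.1% of all Pli1 regions. The 213 were assigned to 39 Nse2 regions with 1 summit each, so at most 39 could hold one. This share is thus capped by the number of Nse2 regions, and the upper part of its interval cannot be reached. Set against the 39, the 37 are again near the share for any base. Of the longest 71 long regions, with 7754090 bp in all, 29.6% held their Nse2 summit. The share was 11.3% for the shortest 71, with 1408971 bp. A longer region is more likely to contain any given base, so this contrast goes with length. Holding the Nse2 summit did not mean the same base: of the 15, 8 had both summits within 500 bp. In the 3 largest groups the holders were rad26, a checkpoint kinase subunit gene (score rank 3 of 31, summits 1223 bp apart), eno101 (rank 1 of 27, 29 bp) and rps1001 (rank 4 of 22, 23 bp). In the next by number, SPNCRNA.2469 held the Nse2 summit of plb1 (rank 1 of 13), with the summits 2887 bp apart.

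**Figure D5:**
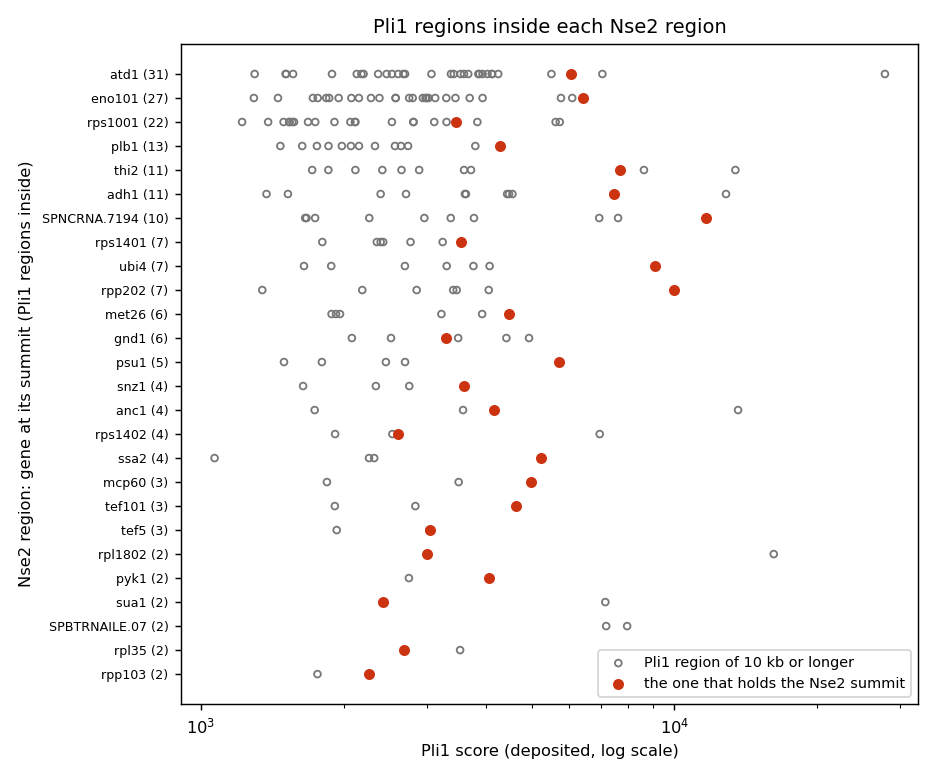
Authors' scores (log scale) of the long Pli1 regions in each of the 26 Nse2 regions that hold more than 1, with a row for each Nse2 region named by the gene at its summit and the number of long Pli1 regions in brackets. The filled point is the long Pli1 region that holds the Nse2 summit. It is the rightmost of its row in 15 of the 26, for which no expected number was worked out.

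Pli1 and Nse2 summits were within 500 bp of each other in 20 long regions (9.39%, interval 5.83 to 14.1%). The share was 13.4% for all Pli1 regions, and 0.49% of the genome lies that close to an Nse2 summit. An untagged peak held 19 of these 20 Pli1 summits, and the exception was rpp103 (16 bp), which codes for an acidic ribosomal protein near the end of chromosome III. The closest were SPNCRNA.7194 (1 bp), the subtelomeric helicase gene tlh1 (8 bp), the mitochondrial ATP carrier gene anc1 (15 bp), rpl1802 (15 bp), rpp103, pyk1 (20 bp), snoU14 (22 bp), rps1001 (23 bp), eno101 (29 bp) and thi2 (39 bp). Around the summit at tlh1 all 300 of the 50-base words are repeated. At adh1 the distance was 58 bp and at ssa2 69 bp. Over all long regions the nearest Nse2 summit was at a median of 106237 bp.

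Among the 20 highest Pli1 scores, an Nse2 summit was close by for some and far away for others. It was 22 bp away for snoU14, 1 bp for SPNCRNA.7194, 116 bp for ubi4, 39 bp for thi2 and 58 bp for adh1. The other scores above that of SPNCRNA.7194 had their nearest Nse2 summit far off, on both sides of that median. The distance was 114227 bp for SPNCRNA.954, 74954 bp for SPAC56F8.13, 29728 bp for SPNCRNA.1390, 95696 bp for SPNCRNA.6615 and 139799 bp for SPNCRNA.1197. An Nse2 region has 1 summit however long it is, and the region of SPAC56F8.13 reached into 2 of them, with its nearest Nse2 summit in the neighbour of the one around its own summit. A distance to the Nse2 summit therefore says nothing of Nse2 signal at the Pli1 summit itself.

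Long regions crossed the known heterochromatic places. Centromere 1 was touched by those of rpl1002, SPNCRNA.3684 (29331 bp, score 2749, 4 untagged peaks) and pyk1. The first and last of these had their summits in genes outside it, while SPNCRNA.3684 is a centromeric RNA. Centromere 2 was touched by SPBTRNAILE.05, SPBTRNAILE.06 and SPBTRNAILE.08, and centromere 3 by SPNCRNA.7194, SPCTRNAARG.13 and SPNCRNA.7229. The mating-type region lay in the region of SPNCRNA.391 (II:2114303-2148029). Only SPCC757.02C and rpp103 reached the outer 30000 bp of chromosome III, beside the ribosomal RNA genes. Repeated 50-base words were present within 150 bp of the summit in 43 of 213 long regions (20.2%), against 23.4% of all Pli1 regions and 31.4% of the shorter ones. Of genome positions, 5.52% have such a word in the same window. The track names in the lists say that reads were uniquely mapped, and how repeated sequence was handled beyond that was not tested.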

How the data were processed

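Each of the 3 ChIP libraries gave 1 list of regions; the 3 inputs were not analysed here on their own. Per the labels' protocols, the ratio of ChIP to input was normalised to the budding yeast calibrator. Per the submitters' processing notes, cutadapt, Bowtie2, SAMtools and MACS3 were used, with the build sacCer3, which is budding yeast. Per the file headers, the tracks held reads mapped uniquely to S. pombe and a p-value. The score is a whole number deposited by the authors for each region, on a scale that no source used here states; the authors' fold, p and q columns are all 0 and were not used. The S. pombe build is not stated, but sequence names and versions match ASM294v3, whose RefSeq annotation was used. Positions are the authors' deposited starts, ends and summit offsets, printed from 1.

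Overlap needed 1 bp. A summit was given the protein-coding, tRNA, rRNA, snRNA or snoRNA gene it lay in, otherwise a non-coding RNA, otherwise the nearest gene. Ambiguous summits in overlapping genes thus carry 1 name. Gene lists were taken by symbol or product, and centromeres from PomBase intervals. The regions and lists were chosen with earlier results of these data known. Named are the 15 longest and 5 shortest regions and 5 just under the threshold, the 20 highest scores, list genes at summits (up to 10 by score), the regions with most and fewest untagged peaks, the 10 closest to an Nse2 summit, those at centromeres and the mating-type locus, and those holding pli1, nse2 and pmt3; the untagged examples at dbp2, sfp1, psu1 and the names outside untagged peaks were chosen after their values were seen. Code was written in Python 3.11.15 with NumPy 2.4.6, SciPy 1.17.1 (intervals) and Matplotlib 3.10.9. Its overlap lookup was checked on simulated intervals. Of 200 points drawn inside an interval, 200 were found in one, and 500 of 500 overlap queries equalled a direct count. Peak calling was not tested.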

Additional observations from a re-analysis of the deposited data

How the results depend on the processing

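Over 9 results and 41 alternatives, 38 values stayed within their limits and 3 moved. A reversal was not scored. The alternatives changed the length threshold, the overlap rule, the window or the untagged score, or left out the outer 30000 bp of chromosome III. The limits were the exact 95% interval of a share, or 1.5 times a count. With untagged peaks of score 100 or more, 2216 lay in long regions in place of 3461. With a threshold of 20000 bp, 0% of regions held no untagged peak in place of 0.939%. This share rests on 2 regions and its interval is wide: it was 3.33% (8 of 240) with a threshold of 5000 bp and 2.82% (6 of 213) with untagged scores of 100 or more. With the summit required to be inside the tRNA gene, 3.29% of regions met it in place of 8.45%. No paired analysis was possible because each strain has 1 ChIP library and no result comes from a test. No library could be left out for the same reason. The summit of a long region is 1 base chosen from up to 351192, so a lower second maximum in the same region is not recorded. Depth and the scale of the score are unknown, which limits how firmly any score can be read.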
